A study of Mus musculus with 2 samples.

Results

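Lcn2, Lrg1, Anxa1 and S100a8 encode acute-phase and neutrophil proteins. They were described here on the 2 deposited arrays of mouse hippocampal RNA, with the 4 genes chosen by name from the lists of changed mRNAs of the study. For each gene 1 probe was found, 4 of the 60930 probes on the arrays. Whether other probes of these genes are among the unnamed ones was not known here. Of the 4 genes, 3 were matched to their probe by symbol in the list of changed mRNAs of the study, and S100a8 was matched through probe ASMM10P026129. The genes had been chosen for their change between these same arrays, so that every ratio of surgery over control is given as a description.

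The control group held male C57 mice (C57BL/6 in the methods of the study) aged 16 to 18 months that received no specific treatment. The surgery group held mice of the same strain, sex and age whose left kidney was removed under ketamine and xylazine anesthesia, with ropivacaine at the incision, and whose hippocampi were taken on day 3 after the operation. Since the control mice had neither anesthesia nor a sham operation, anesthesia, incision and nephrectomy cannot be told apart. Each group is represented by 1 array carrying pooled RNA from 3 hippocampi, so that these arrays hold no replicate and do not measure the spread between mice. The study reported Lcn2 and Lrg1 mRNAs as upregulated by qRT-PCR, and those measurements were not analysed here. Both arrays were read in 1 scan, and array and group cannot be told apart either. Signals well above background were recorded for 76.4% of the control spots and 73.8% of the surgery spots. In pooled tissue, fewer cells of a type and less RNA per cell cannot be told apart. Of 6 marker genes listed for hippocampal neurons, Camk2a and Gria4 could be named, and both were well above background on both arrays, while the other 4 were not analysed here. Camk2a, a kinase of excitatory synapses, had processed signals of 48.5 for control and 111.4 for surgery (log2 ratio 1.35), and Gria4, a glutamate receptor subunit, 70.8 and 137.9 (1.11, in the last 14 columns of the array). Both were thus higher on the surgery array, like Lcn2, Lrg1 and Anxa1, and both were named through the list of changed mRNAs. On the control array both were dimmer than the median processed signal of 98.8, and the Camk2a spot is in column 148. The part of these 2 genes in the results was not tested.

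The acute-phase response is the rise of secreted defense and transport proteins that follows tissue injury, infection or surgery, driven by cytokines such as interleukin-6 and interleukin-1. Lcn2 encodes lipocalin-2, which binds bacterial siderophores and so withholds iron, and which is stored in neutrophil granules and secreted by reactive astrocytes and epithelia. Lrg1 encodes leucine-rich alpha-2-glycoprotein, a secreted protein of liver, neutrophils and endothelium that modulates TGF-β signaling in vessels. Anxa1 encodes annexin A1, a phospholipid-binding protein that limits neutrophil adhesion through formyl peptide receptors. S100a8 encodes a subunit of calprotectin, the calcium- and metal-binding complex that fills the cytosol of neutrophils and binds Toll-like receptor 4.

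The probes that report these genes are short oligonucleotides, and their letters are shown because each value below is the signal of 1 such sequence. The probes of Lcn2, Lrg1 and Anxa1 are 60 bases long, with GC contents of 55.0%, 45.0% and 45.0%. The Anxa1 probe is printed whole, and the first 30 bases are printed for the other two. No bases are capitalized in these probes, since no part of a probe was singled out. The unprinted end of the Lrg1 probe holds AATAAA, the polyadenylation signal hexamer, starting at base 45 from the 5′ end.

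Lcn2 probe: tgtccccaccgaccaatgcattgacaactg

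Lrg1 probe: tatctggctttgacacgtctgtttcagggg

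Anxa1 probe: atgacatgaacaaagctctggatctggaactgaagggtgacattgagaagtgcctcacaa

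The 4 genes lie on different chromosomes of GRCm38.p6. Lcn2 spans chr2:32384637-32387739 on the minus strand, Lrg1 chr17:56119678-56121946 on the minus strand, Anxa1 chr19:20373434-20390671 on the minus strand and S100a8 chr3:90669071-90670034 on the plus strand.

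Lcn2, Lrg1 and Anxa1 were higher on the surgery array, and S100a8 was lower. The largest ratios were those of Lcn2 and S100a8, which were nearly equal in size and opposite in direction, followed by Lrg1, with Anxa1 close to 2-fold. Of the 44044 probes measured on both arrays (both signals well above background), 1.47% reached 2-fold in the direction of surgery and 1.95% in the direction of control. Among the 22022 brightest of these, to which all 4 probes belong, the shares were 0.59% and 1.29%. Since the genes were taken from the changed probes of these arrays, nothing is read from these shares. The same holds for the counts below of probes with a ratio at least as extreme as that of a gene. The errors given are those of Agilent Feature Extraction for a spot. They are the software's estimate for the reading of a spot and leave out the variation among mice. For the 4 probes they were nearly a fixed share of the signal, with log2 errors of 0.204 to 0.206.

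Lcn2, the siderophore-binding lipocalin, had a processed signal of 166.7 ± 17.0 (spot error) for control and 1201 ± 120.2 for surgery. Its local background was 23.0 and 22.0. Quantile normalization gave signals of 157.8 and 1255, and their log2 ratio was 2.99 ± 0.21. This corresponds to 7.95-fold, and to 6.89-fold to 9.18-fold when the ratio is moved by 1 error in either direction. Of the 44044 probes, 18 had a ratio at least this high, Lcn2 included. In columns 1 to 150 of the array, 6 of 40151 probes did.

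Lrg1, the secreted glycoprotein, had the second largest ratio in the direction of surgery among the 4 genes. Its processed signal was 1275 ± 127.5 for control and 4264 ± 426.4 for surgery. The normalized signals of 1219 and 4327 gave a log2 ratio of 1.83 ± 0.20, or 3.55-fold (3.08-fold to 4.09-fold within 1 error). A ratio at least as high was found for 129 of the 44044 probes (0.293%), and for 33 (0.0822%) of those in columns 1 to 150.

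Anxa1, the annexin that restrains neutrophil adhesion, had a processed signal of 362.2 ± 36.4 for control and 653.8 ± 65.5 for surgery. The normalized signals of 340.4 and 689.7 gave a log2 ratio of 1.02 ± 0.20, or 2.03-fold. Moved down by 1 error it was 1.76-fold, under the 2-fold limit, and 614 probes (1.39% of those measured on both arrays) had a ratio at least as high, 298 of them in columns 1 to 150 (0.742% of the probes there). Anxa1 was therefore the only one of the 4 genes whose place on either side of 2-fold lay within its spot error.

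S100a8, the calprotectin subunit, went the other way. The processed signal of its probe was 2254 ± 225.4 for control and 254.9 ± 25.8 for surgery, with local backgrounds of 22.0 and 19.0. The normalized signals of 2163 and 270.6 gave a log2 ratio of -3.00 ± 0.20, a 7.99-fold lower signal after surgery (6.93-fold to 9.22-fold within 1 error). In all, 5 of the 44044 probes had a ratio at least as low, this one included, and 4 of these lay in columns 1 to 150. No file used here pairs this probe with its gene, and its bases are not printed for the same reason. The name was taken from the list of most changed mRNAs, whose entry for S100a8 is matched in size and direction by this probe in the deposited normalized values. The direction of S100a8 was thus part of how its probe was found and is no finding. Among the 60902 probes of that deposited table, 0 others lay within 0.005 of its fold of 8.21, and the nearest differed by 0.0095. Its values are therefore those of the probe, and the gene name holds as far as that match does.

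**Figure D1:**
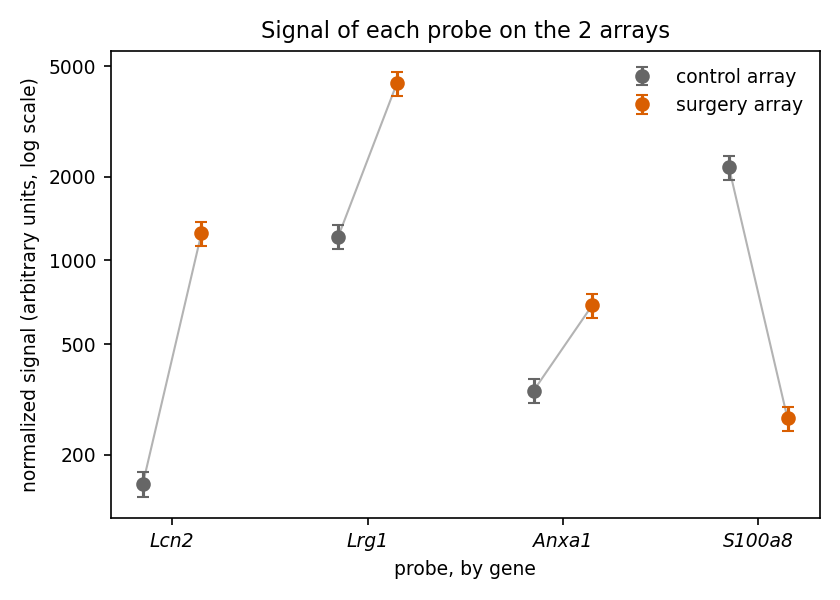
Normalized signal of the 4 probes on the control array (grey) and the surgery array (orange), on a log axis in arbitrary units, with bars for the spot error and a line joining the 2 arrays. Lcn2, Lrg1 and Anxa1 are higher on the surgery array, S100a8 is lower, and signals of different probes are not comparable in level.

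None of the 8 spots, 4 on each array, was saturated, marked as non-uniform or marked as a population outlier, and none had a marked local background. Each of the 8 readings was also called significantly positive and well above background. The dimmest of the 8 readings was Lcn2 on the control array, whose normalized signal of 157.8 lay above the lowest signal well above background on that array, 15.7. The negative control spots had a median processed signal of 3.41 for control and 3.91 for surgery.

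**Figure D2:**
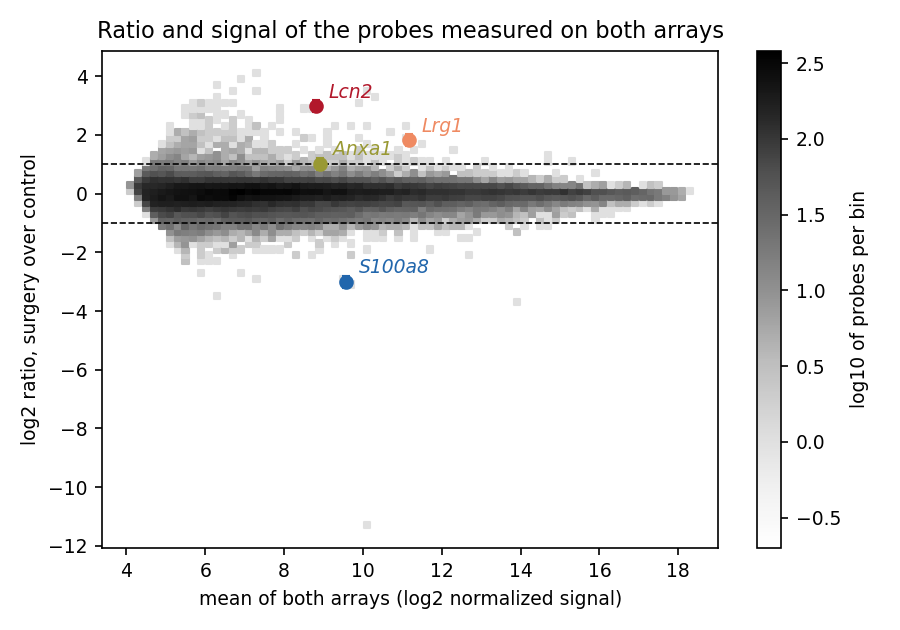
Log2 ratio of surgery over control against the mean log2 normalized signal of both arrays, with grey squares for bins of the 44044 probes measured on both arrays and coloured points with spot errors for the 4 probes. Dashed lines mark 2-fold. Lcn2 at 2.99 and S100a8 at -3.00 lie far from the bulk of the probes of like signal, and Anxa1 at 1.02 lies on the 2-fold line.

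The 4 probes lie outside the last 14 of the 164 columns. Lcn2 is in row 161 and column 140, Lrg1 in row 322 and column 68, Anxa1 in row 251 and column 99, and S100a8 in row 279 and column 27. The share of probes past 2-fold in the direction of surgery was 0.797% in columns 1 to 150, beside 1.47% over the whole array. In the direction of control it was 1.83%, beside 1.95%.

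The spots around each probe were read as a check on local unevenness of the arrays. Within 5 rows and 2 columns of Lcn2, the 37 measured spots had a median log2 ratio of 0.09 and reached 0.68. Around Lrg1 the median of 38 spots was 0.03 and the top value 0.81, and around Anxa1 the median of 41 spots was -0.06 and the top value 0.43. None of these measured spots was at least 2-fold higher. Within 2 rows and 1 column of Lcn2, 3 dim spots that were not well above background on both arrays had log2 ratios of 1.22, 1.34 and 1.36, in the same direction as Lcn2, with processed signals of at most 14.2 for control and 33.9 for surgery. Around S100a8, 30 spots had a median of 0.23, and 1 of them was at least 2-fold lower, with a log2 ratio of -1.53. Among the 8 measured spots within 2 rows and 1 column of S100a8, the lowest log2 ratio was -0.53.

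**Figure D3:**
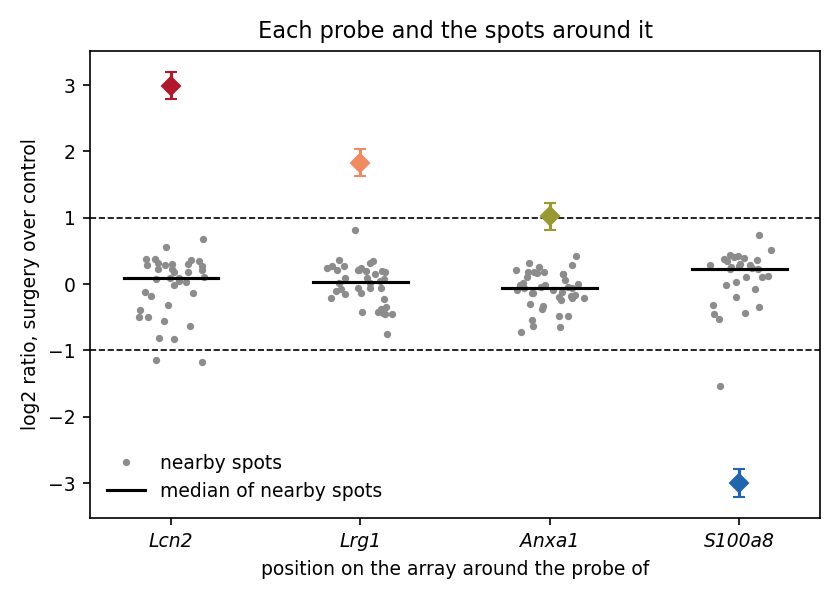
Log2 ratio of surgery over control for each of the 4 probes (coloured diamonds with spot errors) and for the measured spots within 5 rows and 2 columns of it (grey points, spread sideways for legibility), with a black line at their median and dashed lines at 2-fold. Each of the 4 probes lies outside the range of the spots around it, and the medians of the nearby spots lie between -0.06 and 0.23. The 4 probes were chosen for their change on these arrays, so that a place outside that range was largely given by the choice.

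The spread between spots of 1 probe gives another measure of the array error. Of 30 probes printed in 20 spots each, 15 were measured in all their unmarked spots on both arrays. For these the SD between spots of the log2 ratio was 0.05 at the median and 0.15 at most. The spot errors given for the 4 genes were larger, at 0.20 to 0.21. Most of the repeated probes were brighter than those of the 4 genes. The dimmest, with a mean normalized signal of 93.1, had the SD of 0.15. The SD and the spot error both describe the reading of spots, and neither holds the difference between pools of mice.

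The size of the ratios was compared under 7 other ways of processing the same spots. Lcn2 stayed between 6.23-fold and 8.18-fold higher, Lrg1 between 3.32-fold and 3.76-fold higher, and S100a8 between 6.93-fold and 9.40-fold lower. Anxa1 ranged from 1.81-fold to 2.11-fold and was under 2-fold in 3 of the 7. These were no normalization between the arrays (log2 ratio 0.85), the normexp background correction (0.92) and the median pixel of the spot in place of the processed signal (0.95).

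**Figure D4:**
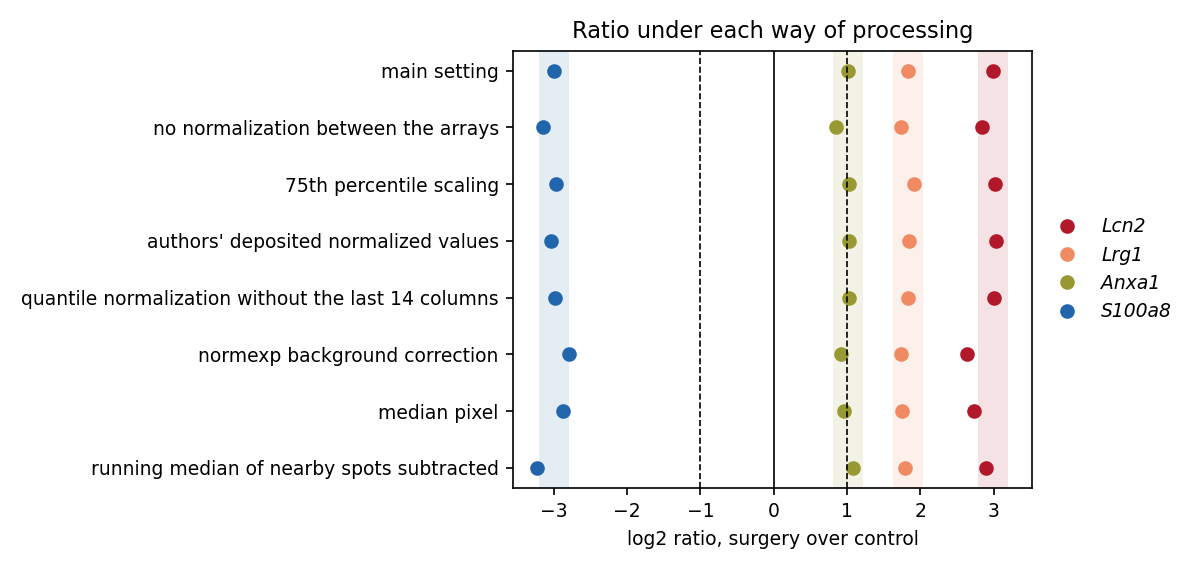
Log2 ratio of surgery over control for the 4 probes under the main setting and 7 alternatives, with shaded bands for the spot error around the main value, dashed lines at 2-fold and a solid line at 0. The direction is the same in every setting shown, and Anxa1 crosses the 2-fold line.

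The normalized values that the authors deposited for the same spots gave log2 differences of 3.03 for Lcn2, 1.84 for Lrg1, 1.03 for Anxa1 and -3.04 for S100a8. They come from the same 2 arrays and are no second measurement.

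Other genes of the acute-phase and neutrophil programs were looked up from lists. A gene could be named only where its probe stands in the list of changed mRNAs, of which 446 probes are held here, so that an unchanged gene has no name and the counts cannot show how many members of a list stayed level. The copy of the list held here is also shortened, mostly among its downregulated probes, leaving 248 upregulated and 198 downregulated ones. A gene without a name may therefore be 2-fold lower, and the named ones lean toward higher. Of 18 acute-phase genes, which include the serum amyloids, orosomucoids and haptoglobin, Lcn2 and Lrg1 were named and 16 were not. Of 18 neutrophil and granule genes, 3 were named. Besides Lcn2 and S100a8 this was Cd177, a surface glycoprotein of neutrophils, with a processed signal of 22.3 for control and 4.30 for surgery. The second was not well above background, which leaves at least a 1.14-fold lower signal, with the spot error of the control reading set aside. S100a9, the partner of S100a8 in calprotectin, was among the 15 not named.

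Among 16 genes of cytokine signaling upstream of the acute phase, 5 were named. Osmr, a receptor subunit for oncostatin M, had processed signals of 35.0 for control and 7.89 for surgery. The second was not well above background, which leaves at least a 1.78-fold lower signal, with the spot error set aside. Tbk1, a kinase of innate immune signaling, had processed signals of 190.5 and 80.2 (log2 ratio -1.10). Il17re, at a log2 ratio of 1.31, and Ikbkb, at -1.86, lie in the last 14 columns, and the spot of Tnip1 was marked. Of 15 receptors and partners of the 4 proteins, Tlr4, the receptor bound by calprotectin, was the only one named, with processed signals of 31.7 for control and 4.92 for surgery. The second was not well above background, which leaves at least a 1.62-fold lower signal after surgery, with the spot error set aside. The receptors of annexin A1 and lipocalin-2 were not named.

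Markers of other cell types were looked up in the same way, and those named are past 2-fold by that choice. Of 16 markers of meninges and arachnoid, 12 were named, and the 10 that were measured on both arrays all exceeded 2-fold in the direction of surgery (log2 ratios of 1.04 to 3.29), 8 of them outside the last 14 columns. Over all probes measured on both arrays this share was 1.47%, and since 248 of the 446 list probes are upregulated, nothing is read from the count. The 10 summed to a normalized signal of 22500 for control and 61800 for surgery. This sum was set mainly by the bright probe of Ptgds, a prostaglandin D synthase gene (normalized signals of 16820 and 40730). Which cells gave the Ptgds signal was not tested, and the sum is no measure of relative transcript levels. The 2 others were Emilin3, not well above background on the control array, and Tfap2a, whose spot was marked. The 12 were named through the list of changed mRNAs, so that their count is not independent of the change, and their part in the ratios of Lcn2, Lrg1 and Anxa1 was not tested. Thbd, an endothelial surface receptor and the 1 named of 5 endothelial markers, had processed signals of 2895 and 7971. Clic6, the 1 named of 7 choroid plexus markers, had a log2 ratio of -1.38. None of the 4 red blood cell genes and none of the 7 astrocyte and microglia genes was named, so that their levels beside S100a8 are not given.

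The 250 bases before the start site of each gene were read from RefSeq to see which sequence features the genes share. All 4 genes have 1 such sequence, and those of Lcn2 and S100a8 are shown, since their ratios were the largest and opposite. Capitals mark a TATA box or a match to the NF-κB pattern, both of which are spelled out after the sequences.

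Lcn2 promoter, chr2:32387740-32387989, minus strand: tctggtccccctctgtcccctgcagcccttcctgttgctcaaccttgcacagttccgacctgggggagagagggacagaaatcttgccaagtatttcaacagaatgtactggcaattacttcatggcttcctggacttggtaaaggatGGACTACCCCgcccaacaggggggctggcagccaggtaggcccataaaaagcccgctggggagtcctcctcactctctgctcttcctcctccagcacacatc

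S100a8 promoter, chr3:90668821-90669070, plus strand: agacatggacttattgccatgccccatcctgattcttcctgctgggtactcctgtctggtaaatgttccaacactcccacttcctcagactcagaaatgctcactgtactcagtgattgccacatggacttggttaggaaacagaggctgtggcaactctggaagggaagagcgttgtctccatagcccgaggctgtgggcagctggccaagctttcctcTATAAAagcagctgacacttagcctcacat

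Both strands were searched, and no match overlapped another. The exact TATA box letters TATAAA were found before S100a8, from 30 to 25 bases before the start site, and before Anxa1, from 32 to 27 bases before it. They were not found before Lcn2 and Lrg1, and variants of the TATA box were not searched. The exact letters are in 12.4% of 32841 promoters of this length. The NF-κB pattern, GGG and CC separated by 5 unspecified bases, was found before Lcn2, Lrg1 and Anxa1 and not before S100a8, and 45.8% of the promoters hold it, so that a match is frequent. Lrg1 also held TTGCNNNAA, searched as a longer C/EBP pattern, 213 to 205 bases before the start site (8.29% of the promoters). The shorter C/EBP pattern TTNNNNAA, which differs in spacing, was found before Lcn2, Anxa1 and S100a8 (57.7%) and not before Lrg1. The STAT pattern TTCNNNGAA (7.02%) and the AP-1 pattern TGANTCA (6.75%) were in none of the 4 windows. The GC content of the windows was 56.4% for Lcn2, 55.2% for Lrg1, 46.0% for Anxa1 and 50.8% for S100a8, beside a median of 52.4% over all promoters. These are matches of letters within 250 bases and say nothing of binding.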

How the data were processed

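Cy3-labeled cRNA was hybridized to Arraystar mouse lncRNA arrays, 1 per group, and read with Agilent Feature Extraction 11.0.1.1, per the labels. The processed intensities that the authors deposited are corrected for background and detrended within an array. The authors' deposited table holds log2 values after quantile normalization. Both arrays passed through 1 scan.

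The log2 processed signals of the 61500 spots that are not controls were quantile normalized between the arrays, 50 probes with a marked spot were left out, and the 44044 probes called significantly positive and well above background on each array were kept. With 1 array per group no test was run. The number of arrays limits the precision. Spot errors were combined on the log2 scale, and the bounds described next leave them out. Where 1 array only was well above background, the brighter signal was divided by the dimmer one or by the lowest normalized signal that passed as well above background there (15.7 control, 18.9 surgery), whichever was higher. The calculation was run on simulated data, where 200 of 200 changed probes were recovered and 0 unchanged ones called. These counts hold for the simulated data only. On the deposited arrays the median spot error of the log2 ratio was 0.207, and recovery at that error was not tested. How many unchanged probes pass 2-fold on the deposited arrays was not tested.

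The members and lists were chosen with earlier results of these data known. Named genes are the 4 genes and the listed genes with a probe in the study's mRNA list, of which 248 upregulated and 198 downregulated probes are held. Fold changes in the study's lists served only to find the S100a8 probe. The lists cover acute-phase genes, neutrophil genes, upstream cytokine signaling, partners and receptors, red blood cells, meninges and arachnoid, choroid plexus, endothelium, astrocytes and microglia, and hippocampal neurons. Normexp (limma 3.58.1, R 4.3.3, offset 50) used the median pixel, since the files hold no mean signal. Other steps used Python 3.11.15, numpy 2.4.6, pandas 2.3.3 and matplotlib 3.10.9. Gene positions and promoters are from RefSeq, GRCm38.p6.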

Additional observations from a re-analysis of the deposited data

How the results depend on the processing

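The direction of each of the 4 ratios was the same under all 7 alternatives run, and those of Lrg1 and Anxa1 moved by less than their spot error in each. The log2 ratio of Lcn2 was 2.64 with the normexp correction and 2.74 with the median pixel. That of S100a8 was -2.79 with the normexp correction and -3.23 with a running median of nearby spots subtracted, and its spot carried no mark, so that leaving out marked spots did not affect it. The count of probes at least 2-fold higher, 647 in the main setting, was 348 without the last 14 columns, where fewer probes are counted, 174 with normexp, 210 with the median pixel, 130 among the brightest 22022 probes and 2384 with no filter on dim probes. The count of probes at least 2-fold lower, 858 in the main setting, was 1483 with no normalization between the arrays, 190 with normexp, 243 with the median pixel, 285 among the brightest 22022 and 2748 with no filter. With the authors' deposited values, 451 probes were at least 2-fold higher and 633 at least 2-fold lower. Subtracting the running median of nearby spots gave 466 and 1018. With no normalization between the arrays, 468 were at least 2-fold higher. The cause of the other shifts was not tested. No paired analysis was possible because each group has 1 array. All 4 probes were well above background. The values are limited by 1 array per group, the absence of a sham operation and, for S100a8, a name that rests on a match of fold.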
